A study of Mus musculus with 14 samples.

Results

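Lin28a and Igf2bp3 are RNA-binding proteins, and the stretches of RNA where their RIP-seq peaks overlapped in muscle stem cells (MuSCs) are described here. A Lin28a-RIP peak was counted as overlapping when it shared at least 1 bp with any peak of the Igf2bp3-RIP table. This held for 11327 of 21616 Lin28a-RIP peaks (52.4%, Wilson 95% interval 51.7 to 53.1), which lay in 2626 of the 3493 genes with a Lin28a-RIP peak. The interval covers counting error only. RIP-seq is the sequencing of RNA pulled down with an antibody against a protein, and a peak is a stretch where the reads of such a library pile up.

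The samples were mouse skeletal muscle stem cells grown on Matrigel-coated plates in serum-containing medium. One group had the genotype label Lin28a positive (Lin28a+ MuSCs) and the other the label Control (control MuSCs). According to the methods, Lin28a+ MuSCs were sorted from mice with the Lin28a-CreERT2 and LSL-tdTomato alleles, a reporter that is turned on by a tamoxifen-inducible Cre under the Lin28a locus, so the group rests on that reporter. How the control cells were obtained, the age and number of the animals and any pooling are not given in the sources used here. There were 14 libraries, with 2 of input RNA, 2 of m6A-RIP and 2 of Igf2bp3-RIP from each group and 2 of Lin28a-RIP from Lin28a+ MuSCs. No label says that the 2 libraries of a group came from separate cultures or animals, so p-values measure the spread between these libraries, which may be technical.

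Lin28a is best known for binding the precursors of the let-7 microRNAs through GGAG-containing stretches and for binding many mRNAs directly. Igf2bp3 belongs to the IGF2 mRNA-binding proteins, which carry KH domains, bind mRNAs and are counted among the readers of N6-methyladenosine (m6A), the most common internal modification of mRNA. Both proteins can enter stress granules, which are assemblies of mRNA and RNA-binding proteins that form when translation is held back.

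Libraries held 36610494 and 33908110 counts in the Lin28a-RIP table, 9215355 to 34142094 in the Igf2bp3-RIP table and 21350962 to 31830638 in the m6A-RIP table, and 4842915 to 6220960 estimated counts in the input table, whose values may be means over the transcripts of a gene. Between the libraries of a pair, chi-square divided by its degrees of freedom, which is 1 for sampling noise alone, was 1.66 and 1.79 for input (512 genes with whole counts), 3.54 to 3.92 for m6A-RIP and Lin28a-RIP, and 32.5 and 37.9 for Igf2bp3-RIP. The Igf2bp3-RIP pairs therefore differed most. Myogenic marker genes summed to 14324 and 14917 CPM in control and to 12103 and 12282 CPM in Lin28a+ input, where CPM are counts per 1000000 counts of the library in its table. Members of this list moved apart, with Cdh15 (log2 0.77) and Pax7 (0.36) higher and Vcam1 (-1.93), Myf5 (-1.21), Sdc4 (-1.10) and Chrna1 (-0.92) lower. Endothelial and macrophage lists stayed at or below 3.18 CPM, but of the 6 endothelial genes only Pecam1 had a row in the input table. Cdh5, Kdr, Tek, Emcn and Cldn5 had none, so that list was hardly measured. Rows were present for 5 of 6 macrophage genes (not Adgre1), 5 of 8 fibro-adipogenic genes and 4 of 6 pericyte and smooth muscle genes. The fibro-adipogenic list summed to 122.4 to 132.9 CPM, of which Col3a1 made up 117.0 to 120.2 CPM in each library. Ly6a of the same list rose from 3.84 and 4.58 CPM to 13.6 and 12.7 CPM (log2 1.61), and the part of such cells in the results was not tested. Of the pericyte and smooth muscle list, Acta2 alone was abundant (5311 and 5396 CPM in the control libraries, 7484 and 7495 in those of Lin28a+ MuSCs), while Myh11 was at or below 0.0804 CPM and Rgs5, a pericyte marker, fell from 2.38 and 2.09 CPM to 0.198 and 0.206 CPM (log2 -3.35). Of the 36 marker genes in all, Pax7, which marks satellite cells, and Col3a1 had an overlapping peak. Lin28a itself was not analysed here.

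Sequence was at hand for the start sites and microRNA hairpins of RefSeq (GRCm38.p6, the assembly that mm10 names follow), and it is shown for the places where both peaks reach it. The overlapping peaks reached the window from 250 bases before to 50 after the start of their own gene in 91 cases (0.803%), against 129 of the Lin28a-RIP peaks that did not overlap (1.25%). On the chromosomes searched, 79 stretches of such windows were covered by both peaks. They had a median length of 82 bases, and 45 (57.0%) held GGAG on the strand that reads as the RNA does. Among all 32851 windows 83.7% held GGAG, a share that cannot be set against that of the stretches because the windows are 300 bases long. The 6 excerpts that follow, of 11 in listed genes, show 30 bases around the first GGAG, in capitals. Those of Smg1 and Map1b include the start base, those of Smarcad1 and Cand1 lie before it and those of Mki67 and Baz1b after it.
Smarcad1, chr6:65043116-65043145, plus strand: ccccctttctctgGGAGccaagtgtggtgg
Smg1, chr7:118243629-118243658, minus strand: cggcgcggcgggcGGAGccgggaggcgggg
Mki67, chr7:135716346-135716375, minus strand: gacgcgggcggcgGGAGtgcgggtctggtc
Baz1b, chr5:135187330-135187359, plus strand: tcccgtgcccgctGGAGaggagtcgtgact
Cand1, chr10:119240069-119240098, minus strand: ccctcctagcgaaGGAGgcgggctttggcc
Map1b, chr13:99516573-99516602, minus strand: ggacgcagggggcGGAGcggagacagcacc
The covered Smarcad1 stretch crossed the annotated start and lay in a Lin28a-RIP peak with 1034 and 982 counts (replicates 1 and 2). The Smg1 stretch lay in a peak with 282 and 246 counts. The Cand1 peak held 3056 and 2667 counts. These are counts of whole peaks, not scaled by width, and depth at the start sites was not measured.

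MicroRNA annotations among the overlapping peaks were almost all positions inside protein-coding genes. The tables annotated 211 overlapping peaks to microRNA genes, and 250 to microRNA, small nucleolar or guide RNA genes. Of these 250 peaks, 249 (99.6%) lay within a protein-coding gene, and 23 held a microRNA hairpin of the RefSeq table. All 23 hairpins lay in a host gene, and 10 of them (43.5%) held GGAG, against 44.5% of the 1005 hairpins in the table. None of the 11 let-7 hairpins in the table fell in any Lin28a-RIP peak. The mature microRNAs below come from the 6 hairpins whose peaks had the highest Lin28a-RIP level, with the seed (bases 2 to 8) in capitals.
mmu-miR-3064-5p, in Ddx5: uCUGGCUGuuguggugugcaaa
mmu-miR-6935-3p, in Actg1: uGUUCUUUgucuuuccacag
mmu-miR-5114, in Scd2: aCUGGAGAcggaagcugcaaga
mmu-miR-7090-5p, in Ctnnb1: uCUCAGAGuugggacaccaugag
mmu-miR-7081-5p, in Dnmt1: aGAGGAGGgugcucggccggggauua
mmu-miR-7045-5p, in Chd4: aGCGGGUGggggagggggacu
No seed was shared by any of the 39 mature microRNAs of the 23 hairpins. The Ctnnb1 peak, on the mRNA of beta-catenin, held 17166 and 16162 counts. The Ddx5 peak, on the mRNA of an RNA helicase, held 9890 and 9020 counts. Reads of the host mRNA and of a hairpin within it cannot be told apart in these counts.

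Most overlaps were close to complete. The 11327 peaks met 11761 of the 19465 Igf2bp3-RIP peaks (60.4%) in 12203 pairs. A single Igf2bp3-RIP peak was met by 10678 of them, 2 by 500 and 3 or more by 149. The shared stretch had a median of 256 bp (quartiles 205.5 and 387), and 99.3% of pairs shared at least 100 bp. The centres of a pair lay a median of 29.5 bp apart, and 62.2% of pairs had centres within 50 bp. In the median peak, 87.4% of the width was shared. Only 3 peaks shared under 10 bp, in Cfap298 (5 bp), Pign (7 bp) and Itpripl2 (8 bp), with 142 to 271 counts per library. Just outside the rule, peaks in Anxa3, Brip1 and Mrps25 missed an Igf2bp3-RIP peak by 3, 17 and 23 bp, with 93 to 393 counts per library. In all, 34 of the 10289 peaks that did not overlap were within 100 bp of an Igf2bp3-RIP peak, and their median distance was 4140 bp. The rule's 1 bp limit therefore decided few peaks.

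The overlapping peaks were wider and held most of the Lin28a-RIP counts. Their width had a median of 330 bp (quartiles 256 and 535) and reached 19060 bp, against a median of 251 bp for those that did not overlap. They held 69.8% and 70.0% of the counts in replicates 1 and 2, with a median of 965 and 893 counts per peak against 594 and 549. Per length the difference was smaller. The median was 67.3 and 67.8 CPM per kb in the overlapping peaks, 62.1 and 62.4 in other peaks of genes with an Igf2bp3-RIP peak, and 44.5 and 43.7 in genes without one. The 2 Lin28a-RIP libraries differed by less than 1.5-fold in 99.6% of the overlapping peaks, with an SD of 0.15 for the log2 ratio. The share of Lin28a-RIP peaks that overlapped went from 30.3% of those 200 to 221 bp wide to 76.8% of those of 475 bp and more, which are the outer 2 of 5 equal groups by width. By CPM per kb it went from 46.8% in the lowest of 5 groups to 59.5% in the highest. A wider peak has more bases in which an overlap can fall, and the part of width in these differences was not tested.

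**Figure D1:**
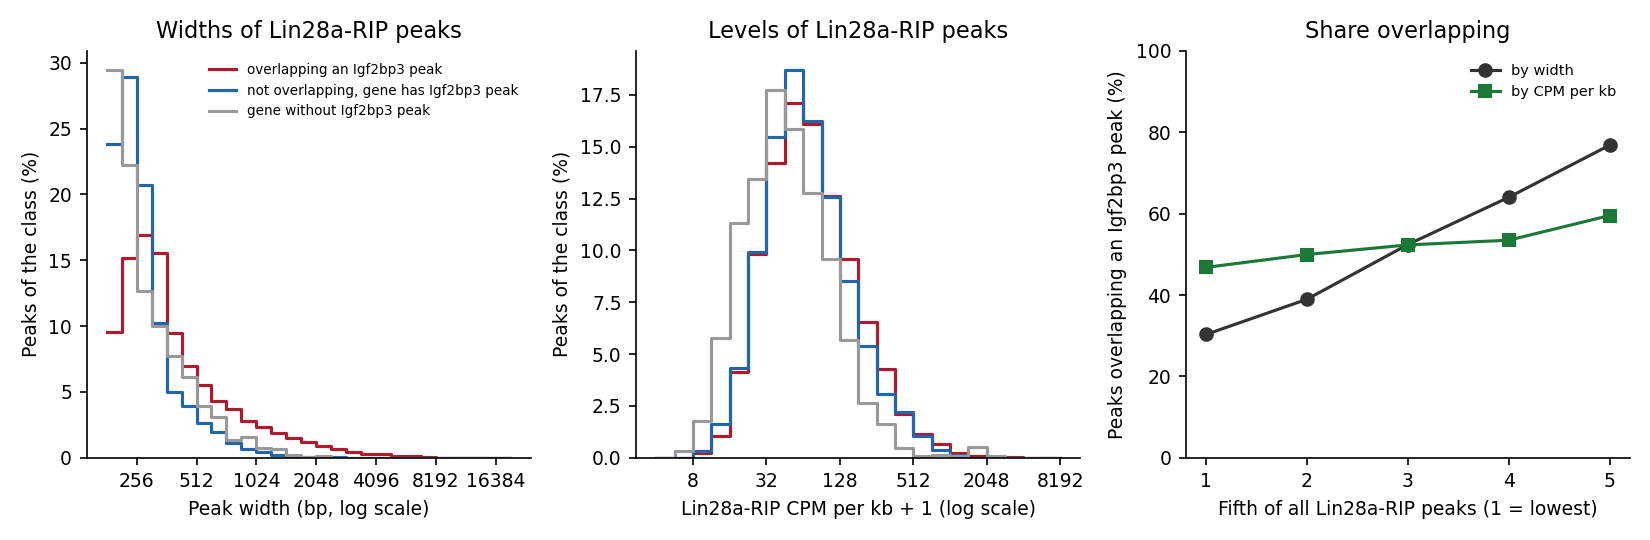
Lin28a-RIP peaks by width (left, bp, log scale) and by level (middle, CPM per kb + 1, mean of 2 libraries, log scale), as the percent of each class of peaks, and the share of peaks that overlapped an Igf2bp3-RIP peak in 5 equal groups by width or level (right). The overlapping class extends to greater widths, and the share overlapping goes from 30.3% to 76.8% across the width groups.

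Within the same gene, the overlapping peaks again had the higher Lin28a-RIP level. In the 1545 genes with both kinds of peak, the median CPM per kb of the overlapping peaks was above that of the others in 1119 genes (72.4%) in replicate 1 and 1122 (72.6%) in replicate 2. The log2 ratio had a median of 0.22 and 0.21. The overlapping peaks were also the wider ones in 84.5% of these genes. For Igf2bp3-RIP, overlapped peaks were the higher ones in 63.9% of 1118 genes, with a median log2 ratio of 0.17. These shares are descriptions, since counts and widths come from the reads on which peaks were called.

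The levels of both pulldowns went together across places. Over 9971 pairs in which each peak met a single other, Lin28a-RIP and Igf2bp3-RIP levels in Lin28a+ MuSCs, as log2(CPM per kb + 1), had a Pearson r of 0.84 and a Spearman rho of 0.82. With the Igf2bp3-RIP level of control MuSCs, r was 0.84 and rho 0.83. The points share the abundance of the mRNA they lie on, and no library of a control antibody was among the 14, so the correlation is given without a test. Overlapped Igf2bp3-RIP peaks had a median level of 83.9 and 81.8 CPM per kb in control and 78.5 and 83.1 in Lin28a+ libraries. The other Igf2bp3-RIP peaks had medians of 56.4 to 60.1 CPM per kb. The overlapped peaks were thus the higher ones in each of the 4 libraries.

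**Figure D2:**
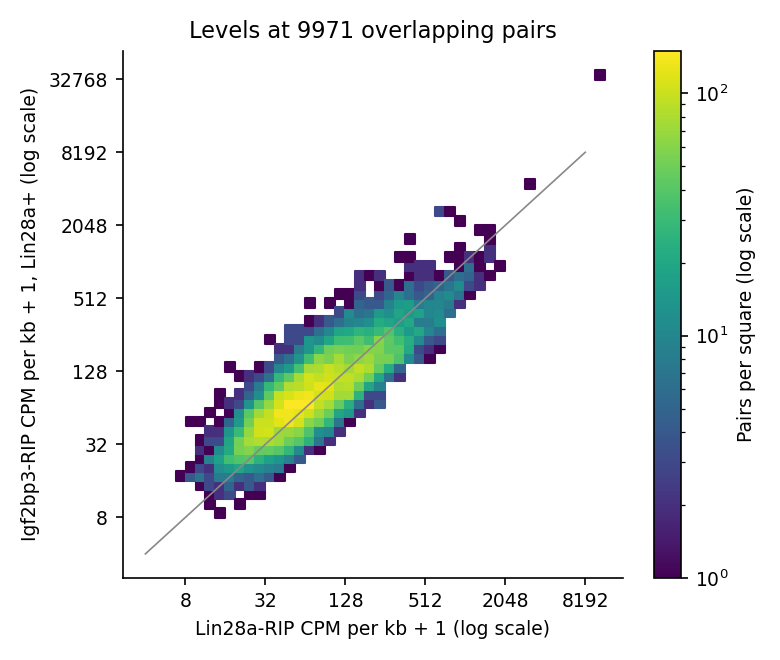
Igf2bp3-RIP level in Lin28a+ MuSCs (CPM per kb + 1, mean of 2 libraries, log scale) against Lin28a-RIP level at the 9971 pairs in which each peak met a single other. Colour gives the number of pairs per square on a log scale, the line marks equal levels, and the squares rise together with an r of 0.84.

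Some of the strongest overlapping peaks lay on transcripts that are abundant in most cells. The highest Lin28a-RIP level was in H19, an imprinted long noncoding RNA of fetal tissue and muscle, at chr7:142575941-142576197, with 98450 and 99454 counts (10464 and 11413 CPM per kb). This peak was covered over all its 257 bp by an Igf2bp3-RIP peak. Hsp90ab1, which encodes a cytosolic HSP90 chaperone, had 4 of the 10 highest peaks, between 1671 and 3414 CPM per kb. Peaks in Hspd1 (a mitochondrial chaperonin), Vim (the intermediate filament vimentin), Nedd4 (an E3 ubiquitin ligase) and Ahnak (a very large scaffold protein) made up the rest. The Ahnak peak spanned 17673 bp (chr19:9001524-9019196) and held 956584 and 895755 counts, and 17656 bp of it were shared with an Igf2bp3-RIP peak. Levels of the 2 libraries differed by less than 10% at each of these 10 peaks.

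Overlapping peaks were spread over many genes, with a small number of genes that held many. A gene had a median of 2 overlapping peaks (quartiles 1 and 5). In 879 genes (33.5%) there was 1, whereas 278 genes with 10 or more held 4550 peaks (40.2% of all). In 1081 genes (41.2%) every Lin28a-RIP peak overlapped. The 10 genes with the most were Dst (68 of 79 Lin28a-RIP peaks), Macf1 (60 of 81), Birc6 (51 of 67), Mdn1 (51 of 86), Utrn (51 of 71), Huwe1 (46 of 57), Usp34 (44 of 48), Herc1 (42 of 64), Smg1 (41 of 47) and Usp9x (39 of 42). Dst, Macf1 and Utrn encode cytoskeletal linkers. Birc6, Huwe1 and Herc1 encode ubiquitin ligases, Usp34 and Usp9x deubiquitinases, Mdn1 a ribosome assembly ATPase and Smg1 the kinase of nonsense-mediated decay. By biotype, 96.1% of overlapping peaks were annotated to protein-coding genes and 166 peaks (1.47%) to long noncoding RNAs of 62 genes. Along the chromosomes the share of Lin28a-RIP peaks that overlapped ran from 48.2% on chromosome 4 to 61.4% on chromosome X.

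Whether Igf2bp3-RIP at these places differed between Lin28a+ and control MuSCs was asked from the counts of both groups. Lin28a-RIP was made from Lin28a+ MuSCs alone, so places with little RNA in those cells were less likely to enter the set. The balance of higher and lower calls among these places is therefore not read as a direction. Of the 11761 overlapped Igf2bp3-RIP peaks, 5 were higher and 0 lower in Lin28a+ MuSCs by edgeR's quasi-likelihood test at an adjusted p under 0.05, where among all 19465 peaks 0.0616% were called higher and 0.0616% lower. Without adjustment, a p under 0.05 was reached by 131 higher and 310 lower ones, and by 2.03% and 3.2% of all peaks. DESeq2 called 49 higher (0.417%) and 27 lower (0.230%), where it called 0.57% of all peaks higher and 0.781% lower. Their log2 fold change had a median of -0.07 (quartiles -0.27 and 0.13), against -0.01 over all peaks. Leaving out control replicate 1 or 2, or Lin28a+ replicate 1 or 2, gave 35, 29, 53 and 39 calls, of which 28, 20, 42 and 33 were higher. The same fits called 66, 46, 94 and 73 of all 19465 peaks higher and 85, 62, 99 and 60 lower. A filter of at least 10 counts in each of the 4 libraries left 0, with 416 at an unadjusted p under 0.05 and 76 by DESeq2 with the usual filter. In these fits a group left with a single library is assumed to vary like the other group. The biological coefficient of variation was 27.9% in the fit of all 4 libraries, which does not pair them. The difference between replicates 2 and 1, however, had a correlation of 0.69 between the groups. With replicate numbers as a block, edgeR called 258 overlapped peaks higher and 728 lower, and 766 and 1222 of all peaks. The balance of calls thus turned with the block, and no label says that these numbers mark a batch.

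Among the 7704 Igf2bp3-RIP peaks that were not overlapped, 7 were called higher and 12 lower. The 5 called overlapped peaks lay in 3 genes and entered the set through Lin28a-RIP peaks of Lin28a+ MuSCs, where they were high. In Selp, which encodes the adhesion molecule P-selectin, the Igf2bp3-RIP peak at chr1:164149016-164149300 held 27 and 41 counts in control and 740 and 2395 in Lin28a+ libraries. Its log2 fold change was 4.91 ± 0.43 (SE of the fit, edgeR adjusted p = 0.0424, n = 2 per group). The groups did not overlap, and the RNA of Selp also rose, from 1.57 and 1.48 CPM to 53.5 and 51.7 CPM. In Fndc3c1, an X-linked gene of the fibronectin type III family, a peak held 28 and 75 counts in control and 365 and 787 in Lin28a+ libraries. The other Fndc3c1 peak held 15 and 59 against 221 and 567. Both rose by about the same amount (log2 3.15 and 3.11), and the RNA of Fndc3c1 rose by 1.96 ± 0.14 on the log2 scale (edgeR adjusted p = 0.000147). In Mocs1, an enzyme of molybdenum cofactor synthesis, peaks held 2 and 12 counts against 139 and 257, and 6 and 13 against 83 and 290. The RNA of Mocs1 stood at 4.37 and 4.75 CPM in the control libraries and at 4.38 and 5.58 CPM in those of Lin28a+ MuSCs, with a log2 fold change of 0.07 ± 0.16 (edgeR adjusted p = 0.849). Its m6A-RIP level, in contrast, went from 1.23 and 1.87 CPM to 25.9 and 27.6 CPM (log2 4.25 ± 0.18, edgeR adjusted p = 1.17e-09). Mocs1 is therefore a gene in which both pulldowns rose and the estimated RNA count did not pass the test.

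The change of Igf2bp3-RIP at the overlapped peaks was set beside the RNA change of the gene. Over the 1096 genes with lower RNA, the median log2 fold change of the overlapped Igf2bp3-RIP peaks was -0.10, and 63.6% of genes were below 0. It was -0.05 over the 335 genes with higher RNA (54.6% below 0) and -0.03 over the 775 genes that did not pass the RNA test (54.2% below 0), so most genes of each class were below 0. Across 2206 genes the change in Igf2bp3-RIP and in RNA had a Pearson r of 0.36 and a Spearman rho of 0.17. Genes are not independent replicates, and no test is attached to these values. Within a gene, the difference between the log2 fold changes of overlapped and other Igf2bp3-RIP peaks had a median of -0.0015 over 1118 genes, with quartiles of -0.12 and 0.10.

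The RNA of genes with an overlapping peak was more often lower than higher in Lin28a+ MuSCs. Of the 2626 genes, 313 had no row in the input table and 104 did not pass the filter on low counts, which left 2209. By edgeR's test 1097 of these were lower (49.7%) and 335 higher (15.2%), where 28.7% of all 11317 tested genes were lower and 28.1% higher. The log2 fold change had a median of -0.29 (quartiles -0.65 and 0.08), against 0.01 over all tested genes. Called changes of more than 2-fold were fewer, with 208 genes lower (9.42%) and 31 higher, where 8.73% of all tested genes were lower and 4.51% higher by that much. At this size the share of lower genes was thus close to that of all genes. DESeq2 called fewer genes with the same imbalance, 551 lower and 135 higher, where 13.8% and 13.1% of all genes were. In bulk samples, fewer cells of a type and less RNA per cell cannot be told apart.

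Genes with an Igf2bp3-RIP peak and no Lin28a-RIP peak were lower in 41.9% of 1444 cases and higher in 16.4%. Genes with both but without an overlap were lower in 30.1% of 103 cases. Genes with a Lin28a-RIP peak and no Igf2bp3-RIP peak went the other way, with 17.6% of 586 lower and 41.0% higher. Genes with neither were lower in 20.2% of 6975 and higher in 33.7%. Shares of lower RNA above the 28.7% of all genes were thus found in the classes with an Igf2bp3-RIP peak, and the differences between classes were not tested.

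The share with lower RNA grew with the number of overlapping peaks. It was 38.7% of the 692 genes with 1 overlapping peak, 43.5% of 788 with 2 to 4, 65.6% of 457 with 5 to 9 and 68.4% of 272 with 10 or more. The share with higher RNA fell from 21.2% to 5.15% over the same groups. Gene length moved with this count, with a median of 34.1, 45.6, 64.4 and 93.6 kb. Genes with an overlapping peak were lower more often than the others in each of 4 equal groups by genomic length, with 32.6% against 13.9% in the shortest and 61.0% against 40.7% in the longest. In the shortest group, however, as many genes with an overlapping peak were higher (45, 33.3%) as lower (44), with a median log2 fold change of 0.03, and the median of the next group was 0.01. The same held in each of 4 groups by RNA level, with 32.1% against 22.6% in the lowest and 56.7% against 25.9% in the highest. The part of gene length in the result was not tested beyond these values.

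**Figure D3:**
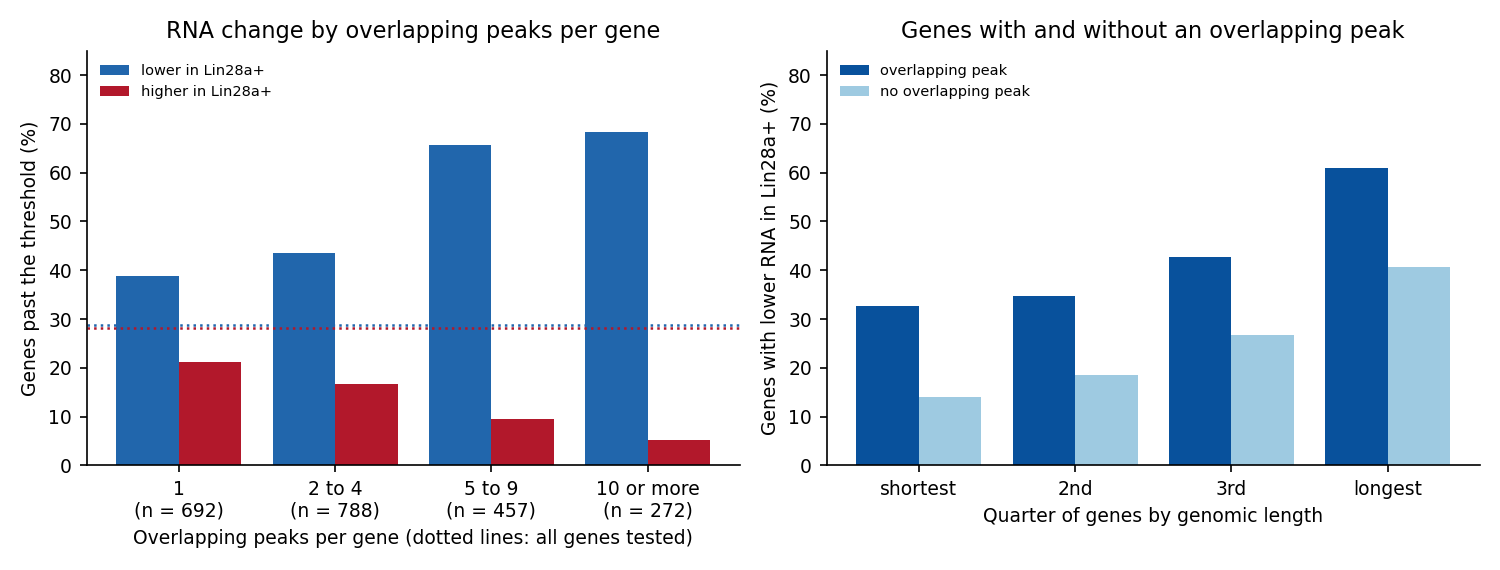
Percent of tested genes with lower or higher RNA in Lin28a+ MuSCs (edgeR adjusted p under 0.05) by the number of overlapping peaks (left, dotted lines at the 28.7% and 28.1% of all genes), and percent with lower RNA by 4 equal groups of genomic length in genes with and without an overlapping peak (right). The share with lower RNA goes from 38.7% to 68.4% with the number of peaks, and stands above that of the other genes in each length group.

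The genes with the most overlapping peaks were all lower. Macf1 went from 110.5 and 112.7 CPM in the control libraries to 38.9 and 39.4 CPM in those of Lin28a+ MuSCs, a log2 fold change of -1.54 ± 0.04 (edgeR adjusted p = 6.56e-06). Dst went from 47.0 and 47.5 CPM to 23.3 and 23.4 CPM (-1.05 ± 0.05 on the log2 scale). Usp34, a deubiquitinase, went from 38.8 and 40.4 CPM to 18.8 and 19.8 CPM. In each of the 3 the libraries of a group differed by far less than the groups. The other 7 of the 10 had log2 fold changes between -1.13 (Mdn1) and -0.74 (Huwe1), with edgeR adjusted p between 4.47e-05 and 0.000212.

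The largest RNA changes were taken among genes with an overlapping peak and a mean of at least 10 CPM. Besides Selp (log2 5.05 ± 0.09), Mcam, which encodes the adhesion molecule CD146, went from 6.53 and 5.87 CPM to 56.8 and 56.5 CPM. Ltbp4, a binding protein of latent TGF-beta, went from 4.43 and 4.14 CPM to 36.6 and 37.7 CPM. Both rose beyond the spread of their replicates, by 3.17 and 3.08 on the log2 scale. Olfml2b, Atp2b4 (a plasma membrane calcium pump), Dio2 (the deiodinase that activates thyroid hormone), Nrm and Igf2bp3 followed with log2 fold changes of 1.89, 1.79, 1.74, 1.68 and 1.65. At the other end, Col18a1, a basement membrane collagen, fell from 429.4 and 457.0 CPM to 31.6 and 29.6 CPM. Spp1, which encodes osteopontin, fell from 196.4 and 201.4 CPM to 13.9 and 13.7 CPM. These were log2 fold changes of -3.88 and -3.87. Akap12, Slc41a2, Cavin4, Sytl5, Ifi204 and Ccnd2 (cyclin D2, which drives entry into the cell cycle) had log2 fold changes of -2.93, -2.77, -2.50, -2.41, -2.34 and -2.30. Each of the 16 genes passed edgeR's test, with adjusted p of at most 0.000142, and had replicates that did not overlap between groups.

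The m6A-RIP levels moved largely as the RNA did. Of the 2150 genes with an overlapping peak and an m6A-RIP row, which are 81.9% of the 2626, 1281 were lower (59.6%) and 317 higher (14.7%), where 33.8% of all 9416 tested genes were lower and 32.5% higher. The median log2 fold change was -0.33, against 0.01 over all genes. Of the 1876 genes tested for both, 859 were lower in both and 195 higher in both. Opposite calls were rare, with 6 genes lower in RNA and higher in m6A-RIP and 32 the other way round. Across 1874 of these genes, the changes had a Pearson r of 0.81 and a Spearman rho of 0.80. The tables give no position for m6A-RIP rows, so whether m6A lay within an overlapping peak was not analysed here.

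**Figure D4:**
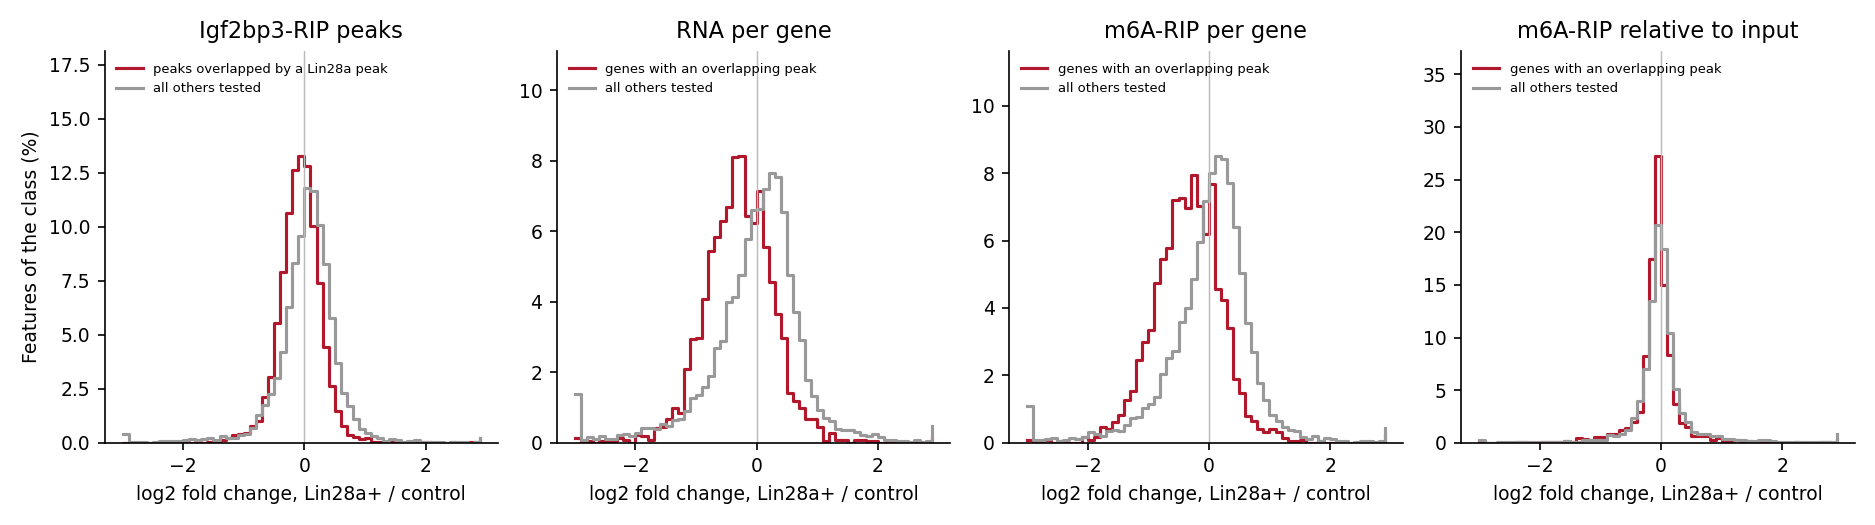
Distribution of log2 fold changes, Lin28a+ over control, of Igf2bp3-RIP peaks overlapped by a Lin28a-RIP peak and of genes with an overlapping peak (red) against all other tested features (grey), in bins of 0.1 with values beyond 3 in the outer bins. The red curves for RNA and m6A-RIP have medians of -0.29 and -0.33, and that for m6A-RIP relative to input has a median of -0.05.

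Among single genes, H19, which had the strongest overlapping peak, went from 62449 and 61174 CPM of m6A-RIP to 99786 and 96611 CPM. Its log2 fold change was 0.77 ± 0.02, and it had no row in the input table. The m6A-RIP level of Selp rose from 3.58 and 3.47 CPM to 102.7 and 103.4 CPM. Il1rl2, a receptor of interleukin-36, rose from 4.21 and 4.07 CPM to 29.9 and 31.3 CPM, and Atp2b4, Olfml2b and Dio2 rose as their RNA did. Col18a1 fell from 765.6 and 789.6 CPM to 42.4 and 42.0 CPM, and Spp1, Akap12, Cavin4 and Npnt (nephronectin, an integrin ligand) had log2 fold changes of -3.76, -2.63, -2.48 and -2.07. Rnf6 was called lower as well, but its control libraries stood at 25.4 and 154.6 CPM, against 13.6 and 12.8 CPM in Lin28a+, and its log2 fold change of -2.64 became -0.85 without control replicate 2.

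Relative to input, few genes changed in m6A-RIP. The interaction of cells and assay was tested for 1943 genes with an overlapping peak, of which 54 were higher (2.78%) and 111 lower (5.71%), where 3.05% of all 8053 tested genes were higher and 4.12% lower. DESeq2 called 36 higher (1.85%) and 62 lower (3.19%), where it called 1.95% of all genes higher and 2.32% lower. Without control input replicate 1 or 2 there were 37 and 34 higher and 71 and 69 lower (151 and 148 higher and 209 and 195 lower among all genes). Without Lin28a+ input a or b there were 30 and 33 higher and 61 and 66 lower (130 and 139 higher and 175 and 208 lower among all genes). The median log2 difference was -0.05, against -0.03 over all genes. Cdh2, which encodes N-cadherin, had 12 overlapping peaks and a difference of 1.27 ± 0.07 (edgeR adjusted p = 2.5e-06), with lower RNA (-1.23) and nearly the same m6A-RIP level (0.05). Plxdc2 (2.23), Top2b (1.25, with 21 overlapping peaks), Pdk2 (1.18), Amot (1.16) and Taok1 (1.09, with 10 overlapping peaks) were the other called genes with the largest rises relative to input. This ranking took genes with a mean of at least 10 CPM in RNA and in m6A-RIP. Mocs1, below that level in RNA, had a difference of 4.17 ± 0.32 (edgeR adjusted p = 2.16e-05). Dut, which keeps uracil out of DNA, had lower m6A-RIP (-0.91) and higher RNA (1.43), a difference of -2.36 ± 0.13 (edgeR adjusted p = 2.5e-06). Nek2, a centrosomal kinase, had a difference of -1.93, and Prrc1, Mtbp, Anxa3 and Nup88 had differences between -1.86 and -1.66.

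The genes the study examined were looked at one by one. Of 27 such genes 23 had overlapping peaks, with 181 of their 234 Lin28a-RIP peaks overlapping. The study chose these genes on these samples, so their shares are not independent evidence. Smchd1, a chromatin protein of X inactivation, had 32 overlapping peaks, Trip12, a ubiquitin ligase, 31, Pds5a, a cohesin regulator, 22, Supt16, a subunit of the histone chaperone FACT, 18, and Usp7, a deubiquitinase of p53 and MDM2, 16. Levels of the 181 peaks ran from 8.75 CPM per kb in Palb2 to 339.5 in Supt16, with a median of 109.3. None of their Igf2bp3-RIP peaks passed edgeR's test without a replicate block, and the log2 fold change had a median of -0.02 (range -0.68 to 1.56).

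In Trip12 the Igf2bp3-RIP log2 fold change was below 0 at all 31 overlapping peaks (-0.36 to -0.0044), none of which passed the test. Its highest peak, at chr1:84793536-84794490, held 10774 and 9876 Lin28a-RIP counts. The Igf2bp3-RIP peak on it held 2366 and 8089 counts in control and 3079 and 8807 in Lin28a+ libraries, where replicate 1 was the shallower library of both groups. Its log2 fold change was -0.16 ± 0.27. The highest Usp1 peak, on a deubiquitinase of the Fanconi anaemia pathway, held 1631 and 1570 Lin28a-RIP counts at chr4:98930748-98931403, and its Igf2bp3-RIP counts were 966 and 1766 in control and 1625 and 3773 in Lin28a+ libraries (log2 0.48 ± 0.34). Fancm, a DNA translocase of the same pathway, had 3 overlapping peaks of at most 21.6 CPM per kb. Fbxw7, the substrate adaptor of a ubiquitin ligase, had 1 with 178 and 198 counts. These places differed more in Lin28a-RIP level than in the change of Igf2bp3-RIP.

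Of the 21 study genes with an RNA test, 14 were lower (66.7%) and 5 higher (23.8%) in Lin28a+ MuSCs, beside 49.7% and 15.2% of all tested genes with an overlapping peak and 28.7% and 28.1% of all tested genes. Tut7, a terminal uridylyltransferase that works with Lin28 on let-7 precursors, went from 19.3 and 21.1 CPM to 10.9 and 10.7 CPM (-0.94 ± 0.07). Fancm went from 4.33 and 4.63 CPM to 2.26 and 2.82 CPM (-0.87 ± 0.18, edgeR adjusted p = 0.0204). In both the groups did not overlap. Trip12, Vcpip1, Smarcad1, Wrn (the Werner syndrome helicase), Slf2, Ino80d, Smchd1, Pds5a, Usp7, Supt16 and Dcp2 (the mRNA decapping enzyme) were lower by 0.26 to 0.74 on the log2 scale. Bard1, the partner of BRCA1, went from 52.5 and 54.8 CPM to 82.5 and 88.2 CPM (0.64 ± 0.05). Usp1 went from 37.3 and 38.9 CPM to 49.3 and 52.3 CPM (0.38 ± 0.05). Ttf2 and Upf1, the helicase of nonsense-mediated decay, were higher by 0.34 and 0.27, while Ercc3 (0.11) and Fbxw7 (-0.41, edgeR adjusted p = 0.152) did not pass the test. Several calls were lost under other settings, among them those of larger changes such as Fancm (-0.87). Without control input replicate 2 the calls of Dcp2, Fancm, Ino80d, Pds5a, Smarcad1, Ttf2 and Usp7 were lost (edgeR adjusted p of 0.0564 to 0.161), and without replicate 1 those of Smarcad1 and Ttf2 (0.0544 and 0.0932). Without Lin28a+ input a those of Dcp2, Fancm, Ino80d, Pds5a, Smarcad1, Upf1, Usp7 and Wrn were lost (0.0551 to 0.197), and without b those of Ino80d, Pds5a, Smchd1 and Ttf2 (0.0672 to 0.283). The log2 fold change of Ino80d became -0.33 without control input replicate 2, and that of Ttf2 became 0.21 without Lin28a+ input b. DESeq2 lost 11 of the 19 calls, Usp1 among them (DESeq2 adjusted p of 0.0878 to 0.425).

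Igf2bp3 mRNA itself carried peaks of both proteins. Of its 7 Lin28a-RIP peaks 2 overlapped, the stronger one at chr6:49105627-49105885 with 829 and 823 counts. The Igf2bp3-RIP peak there held 68 and 153 counts in control and 222 and 610 in Lin28a+ libraries (log2 1.44 ± 0.30, edgeR adjusted p = 0.272). Its RNA rose from 11.3 and 10.7 CPM to 35.8 and 34.3 CPM (1.65 ± 0.07, edgeR adjusted p = 2.9e-05). Its m6A-RIP went from 5557 and 5961 CPM to 6540 and 7008 CPM in a single row (log2 0.34 ± 0.04), and relative to input m6A-RIP was lower by 1.33 on the log2 scale (edgeR adjusted p = 0.000197). The m6A-RIP level of Smchd1 was 3.30 and 1.22 CPM in the control libraries and 4.17 and 3.56 CPM in the Lin28a+ libraries (log2 0.81 ± 0.34), and the log2 fold change was 1.76 without control replicate 1 and 0.91 without Lin28a+ library b, both calls, and 0.32 without control replicate 2. The m6A-RIP level of Igf2bp3 was 272.2 times its RNA level, the 17th highest ratio of 1943 genes, whose median was 1.82, so whether that row measures this mRNA alone was not tested. Igf2bp3 was the only one of the 23 study genes tested to pass the test relative to input.

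**Figure D5:**
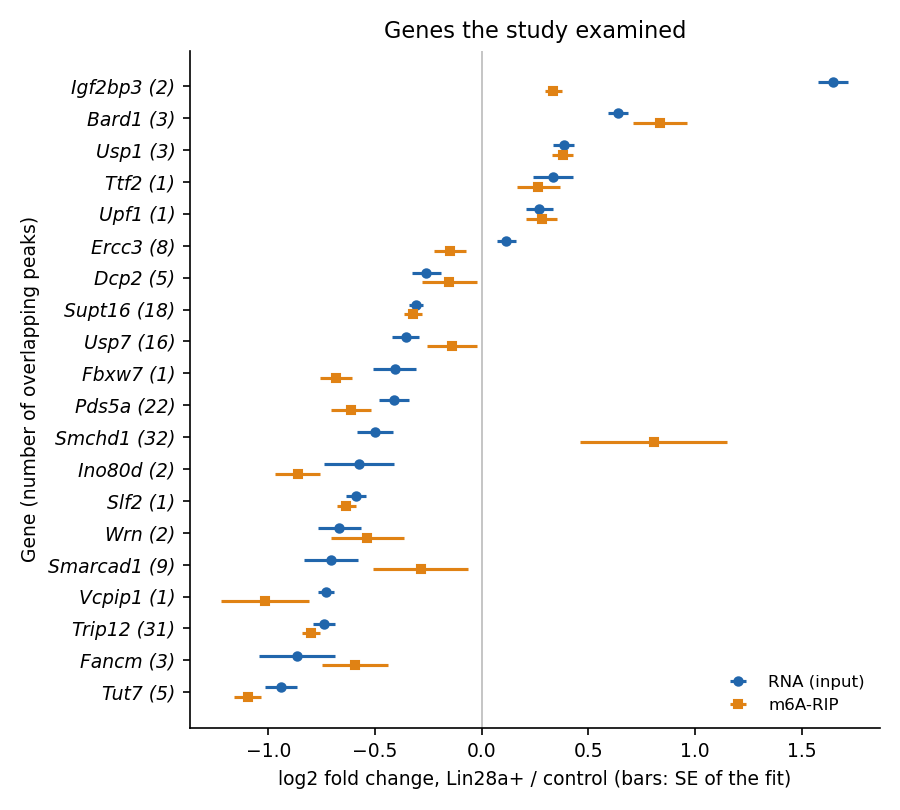
Log2 fold changes, Lin28a+ over control, of RNA (circles) and m6A-RIP (squares) for 20 of the 21 genes examined by the study that had an overlapping peak and an RNA test, with the number of overlapping peaks in parentheses and bars for the SE of the fit. RNA lies below 0 for 14 of the 20, and the widest gaps between RNA and m6A-RIP are those of Igf2bp3 (1.65 and 0.34) and Smchd1 (-0.50 and 0.81, the latter not past the threshold).

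Lists of genes by process were compared by their counts, beside the 19.6% of RNA-tested genes that had an overlapping peak. Overlapping peaks were found in 51 of 62 centrosome, Golgi and cytoskeleton genes (82.3%), 60 of 78 ubiquitin genes (76.9%), 73 of 99 chromatin genes (73.7%), 60 of 84 genes of RNA granules and decay (71.4%), 54 of 79 mitosis genes (68.4%), 14 of 27 genes of the m6A machinery (51.9%) and 60 of 138 genes of DNA damage repair (43.5%). The lowest shares were 4 of 61 oxidative phosphorylation genes (6.56%) and 3 of 76 ribosomal protein genes (3.95%). Between them stood the tricarboxylic acid cycle (10 of 30), DNA replication (14 of 48) and the oxidative stress response (10 of 43). These shares were not tested.

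The RNA calls of the lists were set beside the 49.7% lower and 15.2% higher among all tested genes with an overlapping peak, without a test. The centrosome, Golgi and cytoskeleton list (72.0% lower), the oxidative stress list (70%) and the ubiquitin list (66.7%) stood above the 49.7%, and that of DNA damage repair (39.3%) below it. The chromatin (50.7%), RNA granule (53.3%) and m6A machinery (50%) lists were close to it. In the centrosome, Golgi and cytoskeleton list 36 of 50 tested genes were lower in RNA and 1 higher, with a median log2 fold change of -0.62. In the ubiquitin list 40 of 60 were lower and 4 higher (median -0.57), Birc6 (-0.75) and Huwe1 (-0.74) among them. Ubiquitin genes without an overlapping peak were lower in 11 of 18 cases and higher in 2 (median -0.41). Such genes were lower in 3 of 7 and higher in 0 in the centrosome, Golgi and cytoskeleton list, and 16 and 9 of 30 in the oxidative stress list. They were lower and higher in 6 and 5 of 23 (chromatin), 4 and 8 of 21 (RNA granules) and 2 and 2 of 11 (m6A machinery). In the chromatin list 37 of 73 were lower and 8 higher (median -0.28), with Bptf (-0.69), a subunit of the NURF remodeller, and Ncor1 (-0.75), a nuclear receptor corepressor, both with every Lin28a-RIP peak overlapping. In the list of RNA granules and decay 32 of 60 were lower and 9 higher, and in that of DNA damage repair 22 of 56 lower and 9 higher. Atm, the kinase that signals DNA double-strand breaks, had 22 overlapping peaks and a log2 fold change of -1.18 ± 0.10 (edgeR adjusted p = 0.00029). Of the oxidative stress list 7 of 10 were lower and 2 higher, and Hif1a (-0.58), Gclc (-0.83), a subunit of the enzyme that limits glutathione synthesis, and Txnrd1 (-0.66), a thioredoxin reductase, were lower. Of the m6A machinery 7 of 14 were lower and 3 higher, with Fmr1 (-0.55) and Virma (-0.39), a subunit of the methyltransferase complex, lower and Prrc2a (0.18) higher. The call of Fmr1 was lost without control input replicate 2 or Lin28a+ input a (edgeR adjusted p = 0.0575 and 0.0522), and DESeq2 did not call Fmr1, Ncor1, Prrc2a or Top2a.

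Cell division lists held more higher than lower genes. In the mitosis list 24 of 54 genes with an overlapping peak were higher and 7 lower, with a median log2 fold change of 0.26, and Top2a, the topoisomerase that untangles chromosomes, rose by 0.25 ± 0.04. Ckap5, a microtubule polymerase with 32 overlapping peaks, had -0.08 in RNA, which did not pass the test, and -1.06 in m6A-RIP, which did. In the DNA replication list 9 of 14 were higher and 0 lower (median 0.49), of which Mcm4, a subunit of the replicative helicase, had 0.17, a call that was lost without either control input library or Lin28a+ input a (edgeR adjusted p of 0.054 to 0.153). The genes of these lists without an overlapping peak were higher in 21 of 25 and 28 of 34 cases, with medians of 0.82 and 0.75. In DNA damage repair too, the genes without an overlapping peak were higher in 27 of 74 cases and lower in 2 (median 0.38). In these 3 lists the median of the genes with an overlapping peak was thus below that of the genes without one, by description and not by test. Of the 10 tricarboxylic acid cycle genes with an overlapping peak 4 were higher, namely Idh2 (0.86), Aco1 (0.34), Suclg1 (0.30) and Dlat (0.27), and 2 were lower, namely Pdha1 (-0.76), a subunit of pyruvate dehydrogenase, and Dld (-0.38). Cox7a2, a subunit of cytochrome c oxidase, was higher in RNA (0.50) and lower in m6A-RIP (-0.84), and the ribosomal protein genes Rps6 (0.28) and Rps13 (0.26) were higher in RNA.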

How the data were processed

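Processed tables of 14 libraries were used. For each pulldown the authors deposited unscaled counts per peak, which are whole numbers, and for the input estimated counts of each gene, partly fractional, which were rounded before tests. Of 14837 genes, 904 had whole values in every library (within 0.0001) and 1652 had values that were all multiples of the same simple fraction, as a mean over a gene's transcripts would give. Whether the values are sums or means is not given in the sources used here. A mean would lower the level of genes with many transcripts and understate depth. Per the labels, FastQC, HISAT2 2.0.4, MACS2 1.4.3 and DESeq2 1.42.0 were used, and mm10 and GRCh38 are named without a role. The paper's text states GRCh38, a human assembly, but identifiers and chromosome names are those of mouse. The counter, the peak threshold, the control used for calling and any pooling are not given in the sources used here. Peaks called on pooled or separate libraries would change widths and overlaps.

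The paper states at least 3 biological replicates per experiment, whereas 2 libraries per group are in the tables and their origin is not given. Columns were assigned by name. In the input table the Lin28a+ columns are named as m6A-RIP, and in the m6A-RIP table both Lin28a+ columns have 1 name. These 4 got a group and no replicate number, and all RNA results rest on taking the Lin28a+ columns of the input table as input.

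Overlaps were computed with pyranges 0.1.4. Tests used R 4.3.3 and edgeR 4.0.16 (quasi-likelihood, TMM, filterByExpr, Benjamini-Hochberg over all features, adjusted p under 0.05). m6A-RIP rows were summed per gene, and m6A-RIP relative to input was an interaction term with TMM within each assay. The tests were checked on simulated data. Entrez identifiers matched RefSeq genes in 99.96% to 99.98% of rows. CPM are per 1000000 counts of a table, the pseudocount was 1 CPM per kb, and tables were compared only side by side.

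Named genes were those the study examined, the 10 with the most overlapping peaks, the 10 highest peaks and called Igf2bp3-RIP peaks. Further ones were the 8 (RNA) or 6 (m6A) most changed called genes per direction at a mean of at least 10 CPM, and up to 3 per list with the most overlapping peaks. H19, Selp, Fndc3c1, Mocs1 and the higher tricarboxylic acid cycle genes entered further sentences after their values were seen. Alternatives were DESeq2, its size factors, total counts, other filters, each library left out, a replicate block and stricter overlaps. Members and lists were chosen with earlier results of these data known. Some genes are not reported here.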

Additional observations from a re-analysis of the deposited data

How the results depend on the processing

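The 11327 overlapping peaks became 9294 when each peak had to cover at least 50% of the other, and stayed within 1.5 times under each other overlap rule. For the overlapped Igf2bp3-RIP peaks, 5 calls became 10 with total counts in place of TMM, 76 with DESeq2 (49 higher, 27 lower), 0 with at least 10 counts in every library, and 29 to 53 with 1 library left out. The replicate numbers of the Igf2bp3-RIP are not said to mark a batch. With them as a replicate block, 986 overlapped peaks were called (258 higher, 728 lower), and 766 of all peaks were called higher and 1222 lower. The difference between replicates 2 and 1 in control and in Lin28a+ had a correlation of 0.69 over 19465 peaks. No paired analysis was made for input and m6A-RIP, because no replicate numbers were taken from the names of their Lin28a+ columns. For RNA, DESeq2 gave 686 calls (135 higher, 551 lower) in place of 1432, and leaving out 1 library gave 1200 to 1284. For m6A-RIP, total counts moved the median of all genes to -0.09 and gave 227 higher and 1432 lower, and 1 library left out gave 1493 to 1523 calls. Relative to input, 165 calls became 98 with DESeq2 and 91 to 175 with 1 library left out. The cause of these shifts was not tested. Of the named genes, signs turned only in values that did not pass the test: for RNA, with 1 library left out Mocs1 ran from -0.11 (without Lin28a+ input b) to 0.24 and Pdk2 from -0.15 to 0.026 (without Lin28a+ input a), and for m6A-RIP Dcp2 ran from -0.28 to 0.010 (without control replicate 1), Palb2 from -0.22 to 0.068 (without Lin28a+ library a) and Msh3 from -0.21 to 0.31 (below 0 without control replicate 2 or Lin28a+ library b). Msh3 was at -0.0165 with total counts. A fit without 1 library keeps a single library in that group, which is assumed to vary like the other group. The input tables were the shallowest (4842915 to 6220960 estimated counts), which limits genes of low RNA, and the Igf2bp3-RIP had the largest spread between replicates (27.9%).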
